A study of Rattus norvegicus with 48 samples.

Results

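Fgf21 (ENSRNOG00000020990) and Igf1 (ENSRNOG00000004517) are the genes of 2 hormones made by the liver, and their RNA was followed here in rats with diet-induced steatohepatitis. They were chosen by identifier, with earlier results of these data known, and are 2 of the 32662 genes listed in the count and RPKM tables. Both lay above the minimum level for testing, as did 12756 genes in all. The series holds liver poly(A) RNA of 48 male Wistar rats (RjHan:WI), which were 6 weeks old at arrival. At each of weeks 4, 8 and 12, 8 rats had eaten a diet of defined L-amino acids without choline and with 1% cholesterol (CDAA, spelled "CDDA Cholesterol 1pc" in the labels) and 8 a choline-supplemented control diet (CSAA). CDAA gave 11% of its energy as protein, 31% as fat and 58% as carbohydrate and held 0.17% methionine. CSAA gave 12% as protein, 16% as fat and 72% as carbohydrate and held 0.4% methionine. Choline, cholesterol, fat and methionine thus differed together between the diets and cannot be told apart. Rats were housed in pairs, but the labels do not say which shared a cage. The identifiers of hepatocyte and other cell markers were not paired with names in the tables, so the tissue label was not checked here.

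FGF21 is an endocrine fibroblast growth factor that the liver secretes during fasting, on diets low in protein or methionine, and when the endoplasmic reticulum is stressed. It signals through FGF receptors together with the co-receptor beta-Klotho. Its gene is a textbook target of PPAR alpha and of the amino acid response factor ATF4. IGF1 is the main growth-promoting hormone in blood and comes largely from hepatocytes, where growth hormone drives its gene through the growth hormone receptor and STAT5. Both genes are thus read as outputs of nutrition, FGF21 of nutrient stress and IGF1 of adequate protein and energy supply.

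The 250 bases before the transcription start of each gene are shown because both genes were lower on CDAA and because the factors above are known for their control. Both members were matched by symbol to RefSeq promoters of build GRCr8, which is not the build of the count tables. Fgf21 lies on the minus strand, at chr1:105221377-105221626 for the bases shown. Igf1 lies on the plus strand, at chr7:24172282-24172531, and the start chosen by RefSeq lies inside the span of the gene, downstream of its first base. Capitals mark the motifs found.
Fgf21: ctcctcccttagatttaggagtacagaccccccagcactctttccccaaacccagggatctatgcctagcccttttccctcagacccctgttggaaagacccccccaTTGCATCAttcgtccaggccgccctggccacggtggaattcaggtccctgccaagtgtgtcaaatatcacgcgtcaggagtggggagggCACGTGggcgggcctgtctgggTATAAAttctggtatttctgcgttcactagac
Igf1: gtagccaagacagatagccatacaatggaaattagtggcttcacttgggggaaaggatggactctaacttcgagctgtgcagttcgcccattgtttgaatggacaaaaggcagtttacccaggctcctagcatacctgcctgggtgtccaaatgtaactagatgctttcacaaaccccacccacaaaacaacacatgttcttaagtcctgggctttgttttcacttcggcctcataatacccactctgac

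Motifs were searched on both strands. The composite site of ATF4 with C/EBP proteins (TGATGNAA) was found once in the Fgf21 window, on the antisense strand as TTGCATCA, from 143 to 136 bases before the start. It was present in 3.40% of 33469 promoters of the same length. The direct repeat of PPAR alpha with RXR (2 copies of AGGTCA with 1 base between them, in 0.0508% of promoters) and the STAT5 palindrome (TTCNNNGAA, in 7.67%) were not in either window. An E-box (CACGTG, in 5.59% of promoters) and a TATA box (TATAAA, in 12.9%) of the Fgf21 window were looked for after the sequences had been read, and neither was in the Igf1 window. Motif matches describe these letters only.

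Between 13619274 and 22284359 reads per rat were counted on genes, with a median of 18614479. At this depth counting error was small for both genes. Igf1 had between 5044 and 19424 reads per rat, and the error of counting alone was at most 1.41% of a value. Fgf21 had between 60 and 1389 reads, and that error reached 12.9% in the rat with the fewest. Counts were scaled to library size as CPM, with TMM factors that correct for the make-up of each library. The mean factor was 0.808, 0.848 and 0.777 on CSAA and 1.07, 1.29 and 1.37 on CDAA at weeks 4, 8 and 12 (n = 8 each), so the scaling itself moved with the diet. Values are therefore also given scaled to the reads on genes alone. Diet effects were tested on the counts with edgeR's quasi-likelihood test. A gene was called when its adjusted p was below 0.01 and its log2 fold change was 1 or more in size.

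Fgf21 was lower on CDAA and was called at all 3 weeks with TMM factors in edgeR, and only the call of week 8 held under every alternative run. At week 4 its CPM ranged from 8.35 to 59.5 on CSAA, with a median of 45.3, and from 6.60 to 30.04 on CDAA, with a median of 14.01. The groups overlapped, mainly through animal 102 on CSAA (8.35) and animal 301 on CDAA (30.04), and 7 of 8 CDAA rats lay below the second lowest CSAA rat (26.6). The mean was 41.9 ± 18.5 on CSAA and 15.1 ± 7.22 on CDAA (SD, n = 8 each). In edgeR the log2 fold change was -1.47 ± 0.38 (SE, adjusted p = 8.15e-04). In whole tissue, fewer cells of a type cannot be told apart from less RNA per cell.

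At week 8 the difference in Fgf21 was larger in size. CPM ranged from 18.1 to 77.1 on CSAA (median 34.4) and from 4.56 to 18.3 on CDAA (median 6.98). The groups touched only at animal 703 on CDAA (18.3), and the other 7 CDAA rats were at or under 8.19. Means were 38.2 ± 18.1 and 7.96 ± 4.40 (SD, n = 8 each), 4.80-fold lower on CDAA (log2 fold change -2.26 ± 0.39, SE, edgeR adjusted p = 1.88e-06). Of all genes tested, 1.40% had a lower log2 fold change at this week, against 1.73% at week 4 and 5.78% at week 12. After removal of a trend with gene length, the log2 fold changes of Fgf21 were smaller and closer together. They were then -1.12, -1.39 and -1.04 at weeks 4, 8 and 12 (edgeR adjusted p = 0.00898, 0.00146 and 0.0167).

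At week 12 the Fgf21 difference was the least certain of the 3. CPM ranged from 5.76 to 48.3 on CSAA (median 10.8) and from 2.45 to 10.7 on CDAA (median 6.23). The groups overlapped broadly, with 4 of 8 CDAA rats below the lowest CSAA rat and 1 CSAA rat, animal 906 at 48.3, far above the next (21.9). Means were 15.5 ± 14.1 and 6.08 ± 3.34 (SD, n = 8 each), a log2 fold change of -1.35 ± 0.39 (SE, edgeR adjusted p = 0.00197). The study left a CSAA sample numbered 906 out of its proteomics as a clear outlier. Without animal 906 the log2 fold change was -0.83 (edgeR adjusted p = 0.0386) and the call was lost. It was also lost with limma-voom, the method of the study (-1.22, adjusted p = 0.0122), with limma-voom quality weights (-0.67, adjusted p = 0.130) and in an edgeR fit of the week alone (-1.25, adjusted p = 0.0132).

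Igf1 was lower on CDAA at all 3 weeks, with no overlap between the diets at any. At week 4 its CPM ranged from 871 to 1178 on CSAA (median 1072) and from 327 to 705 on CDAA (median 377). The highest CDAA rat was animal 303, and the next was at 445. Means were 1065 ± 101 and 417 ± 122 (SD, n = 8 each), 2.55-fold lower on CDAA (log2 fold change -1.35 ± 0.12, SE, edgeR adjusted p = 1.71e-12). At week 8 it ranged from 566 to 960 (median 839) on CSAA and from 263 to 354 (median 313) on CDAA, with means of 799 ± 142 and 306 ± 31.6 (SD, n = 8 each). This was a log2 fold change of -1.38 ± 0.12 (SE, edgeR adjusted p = 6.22e-14). At week 12 the ranges were 798 to 1192 (median 931) on CSAA and 263 to 349 (median 285) on CDAA. Means were 966 ± 167 and 297 ± 34.2 (SD, n = 8 each), 3.25-fold lower on CDAA (log2 fold change -1.70 ± 0.12, SE, edgeR adjusted p = 2.15e-16). Of all genes tested, 2.14%, 6.38% and 3.14% had a lower log2 fold change than Igf1 at weeks 4, 8 and 12.

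Both genes belong to a large set. Of the 12756 genes tested, 4.27%, 12.1% and 11.3% were called lower on CDAA at weeks 4, 8 and 12, and 3.07% at all 3 weeks. In CPM, 4.60%, 23% and 23.6% of genes lay wholly lower on CDAA with no overlap at weeks 4, 8 and 12, and 2.45% did so at all 3. Igf1 was among these 2.45% and Fgf21 was not, since its groups overlapped at every week.

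**Figure D1:**
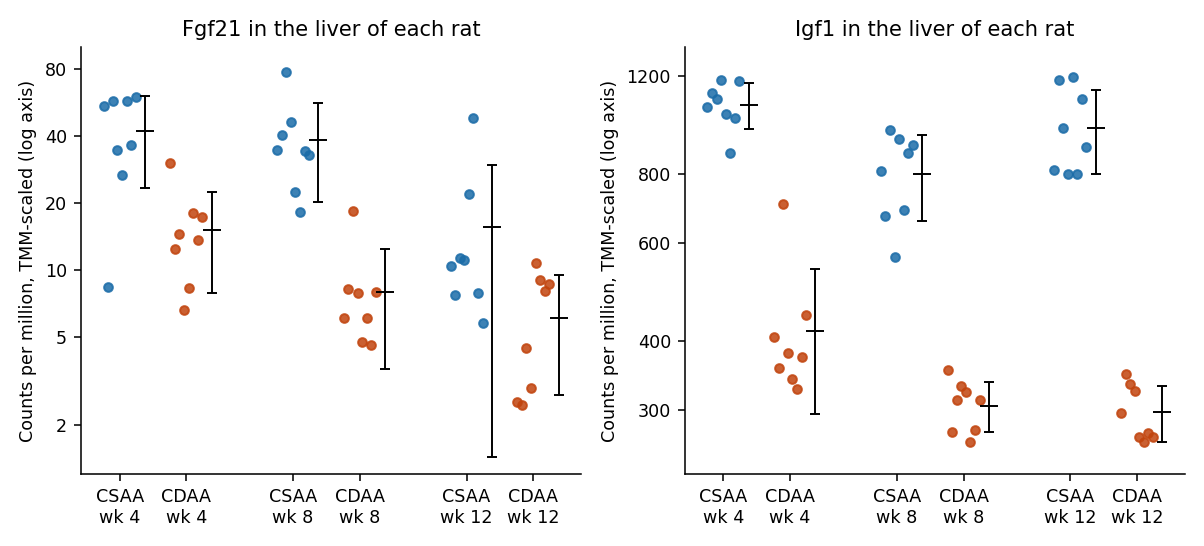
TMM-scaled CPM of Fgf21 (left) and Igf1 (right) in each rat (points, log axis), by diet and week, with the mean and SD of each group of 8 beside the points. Igf1 of the diets did not overlap at any week, whereas Fgf21 of CSAA at week 12 (median 10.8) had come down to the range of the CDAA groups, apart from animal 906 at 48.3. Of these 8 CSAA rats, 4 lay above the highest CDAA rat of the same week (10.7).

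The size of the diet effects depended on the scaling, and also on whether the gene length trend was removed. Scaled to reads on genes alone, the median of all genes tested moved up by 0.39, 0.65 and 0.73 on the log2 scale between the diets at weeks 4, 8 and 12, against -0.02, 0.05 and -0.09 with TMM factors. On that scale 92.3%, 88.7% and 94.0% of calls were higher on CDAA, against 78.6%, 59.9% and 63.2% with TMM. Igf1 then had log2 fold changes of -0.97 (edgeR adjusted p = 3.57e-12), -0.77 (2.94e-10) and -0.88 (6.71e-12), each below the limit of 1 in size. Its raw CPM still did not overlap, from 704 to 938 on CSAA and 377 to 583 on CDAA at week 4, 556 to 840 and 349 to 449 at week 8, and 608 to 910 and 362 to 454 at week 12. The share of all genes without overlap was counted with TMM factors alone, so there is none to set beside these ranges.

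Fgf21 lost 2 of its 3 calls, that of week 4 through its p and that of week 12 through both its p and its size. With reads on genes alone its log2 fold change was -1.06 (edgeR adjusted p = 0.0148), -1.68 (2.05e-04) and -0.52 (0.219) at weeks 4, 8 and 12, so that only week 8 was called. At week 12 the medians were then 8.18 CPM on CSAA and 8.47 CPM on CDAA. A change of scaling moves all genes of a library alike. Values relative to the median of all genes therefore nearly agree between the scalings by construction, and do not check either scaling. For Fgf21 these were -1.45, -2.31 and -1.27 with TMM and -1.45, -2.33 and -1.26 with reads on genes alone. For Igf1 they were -1.33, -1.44 and -1.61 with TMM and -1.37, -1.43 and -1.61 with reads on genes alone.

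**Figure D2:**
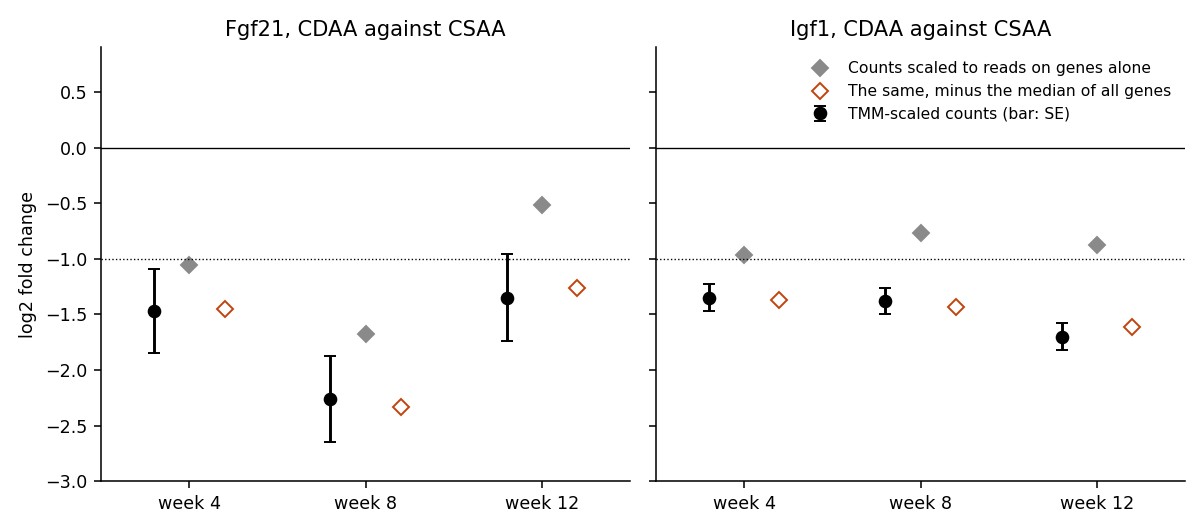
Log2 fold change of Fgf21 (left) and Igf1 (right), CDAA against CSAA, at each week with TMM-scaled counts (black, bars are SE), with counts scaled to reads on genes alone (grey) and with the latter minus the median of all genes (open). The dotted line marks the limit of -1 for a call, which Igf1 missed on the grey scale, for example with -0.77 at week 8 against -1.38 with TMM.

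The rank of a gene within its own library needs no scaling between rats, and it was added after the data were seen. A rank also moves when other genes rise or fall, so it is not free of changes in library make-up. By RPKM, Igf1 ranked between 105 and 153 among the 12756 genes on CSAA at week 4 and between 189 and 269 on CDAA (two-sided exact permutation test of the mean rank, 8 rats against 8, p = 1.55e-04, the smallest p this design allows, adjusted p = 6.66e-04 over 30 tests). At week 8 the ranks overlapped, from 135 to 209 on CSAA and from 180 to 268 on CDAA (exact permutation test, adjusted p = 0.00339). At week 12 they were 115 to 165 and 190 to 242 (exact permutation test, adjusted p = 6.66e-04). Igf1 thus stayed among the most abundant RNAs of the liver on both diets.

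The rank of Fgf21 was far lower and more scattered. Its median rank at weeks 4, 8 and 12 was 1132, 1382 and 3251 on CSAA and 2656, 4048 and 4542 on CDAA. At week 12 its median RPKM was not lower on CDAA (13.5) than on CSAA (13.1), although its median rank was. Between the diets the mean rank differed at week 4 (exact permutation test, adjusted p = 0.0392) and week 8 (adjusted p = 0.00155, exact permutation test) and not detectably at week 12 (exact permutation test, adjusted p = 0.0670).

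Per length, Igf1 was the more abundant of the pair in every rat. Its RPKM was 677 ± 70.2, 529 ± 70.3 and 554 ± 93.9 on CSAA and 346 ± 54.1, 288 ± 28.7 and 309 ± 24.3 on CDAA at weeks 4, 8 and 12 (SD, n = 8 each). Fgf21 had an RPKM of 54.3 ± 24.3, 52.7 ± 27.3 and 19.2 ± 17.95 on CSAA and 25.9 ± 13.1, 16.5 ± 9.44 and 13.4 ± 7.50 on CDAA. The median ratio of Igf1 to Fgf21 RPKM within a rat ranged from 11.7 (CSAA, week 4) to 36.8 (CSAA, week 12).

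The ratio of the counts of both genes within a rat shows whether they differed unequally, whatever the scaling. Its mean log2 was 4.87 ± 1.00, 4.49 ± 0.67 and 6.29 ± 1.06 on CSAA and 4.89 ± 0.71, 5.40 ± 0.63 and 5.83 ± 1.04 on CDAA at weeks 4, 8 and 12 (SD, n = 8 each). Of the 15 pairs of groups, only CSAA at week 12 against CSAA at week 8 passed (two-sided exact permutation test, difference 1.80, adjusted p = 0.0373). Between the diets it did not pass at week 4 (exact permutation test, adjusted p = 0.967), week 8 (0.0573) or week 12 (0.445).

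Fgf21 was also lower at week 12 than earlier in the controls, where time on the diet, age and the time of sampling cannot be told apart. On CSAA its mean CPM was 41.9, 38.2 and 15.5 at the successive weeks. From week 4 to week 12 it fell by 1.42 on the log2 scale (SE 0.38, edgeR adjusted p = 0.00251), where 1.34% of genes were called lower and 44 genes had a lower log2 fold change. This fall remained a call whichever rat was left out, and was lost when a trend with gene length was removed (log2 fold change -0.89, adjusted p = 0.0665). From week 8 to week 12 it fell by 1.30 (SE 0.38, edgeR adjusted p = 0.00522, with 2.07% of genes called lower), and this call was lost without any of 7 rats (animals 503, 901, 902, 903, 904, 907 and 908), with log2 fold changes from -1.24 to -1.07, and with the length trend removed (-0.78, adjusted p = 0.111). Between weeks 4 and 8 the log2 fold change was -0.13 ± 0.37 (SE, edgeR adjusted p = 0.887, 95% interval -0.85 to 0.60). These contrasts share the rats of week 12 with the diet effect at that week.

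On CDAA, Fgf21 fell by 1.31 on the log2 scale from week 4 to week 12 (SE 0.39, edgeR adjusted p = 0.00373, with 3.13% of genes called lower). Without animal 301 the value was -1.08 (adjusted p = 0.0166) and without animal 1101 it was -1.19 (adjusted p = 0.0102), and neither was called. The call was also lost with reads on genes alone (-0.96, edgeR adjusted p = 0.0365), on both RPKM scales (limma adjusted p = 0.0272 and 0.0290), with the length trend removed (-0.81, adjusted p = 0.0794) and without animals 303, 504, 908 and 1102 (-1.14, adjusted p = 0.0153). The log2 fold change was -0.92 ± 0.39 (SE, adjusted p = 0.0444) from week 4 to week 8 and -0.39 ± 0.39 (SE, adjusted p = 0.634) from week 8 to week 12. Without animal 703, the high CDAA rat of week 8, the former was -1.22 (adjusted p = 0.00966) and was called.

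No change of Igf1 with time was called on either diet. On CSAA its log2 fold change was -0.41 ± 0.12 from week 4 to week 8 (SE, edgeR adjusted p = 0.0446), 0.27 ± 0.12 from week 8 to week 12 (adjusted p = 0.0583) and -0.14 ± 0.12 from week 4 to week 12 (adjusted p = 0.363). The CSAA means of weeks 4 and 8 differed in exact permutation tests on each scale, with 1065 against 799 CPM with TMM (adjusted p = 0.00186), 859 against 671 CPM with reads on genes alone (0.00430), an RPKM of 677 against 529 (0.00502) and a mean rank of 124 against 179 (0.00117). On CDAA it was -0.45 ± 0.12 from week 4 to week 8 (adjusted p = 0.00156) and -0.49 ± 0.12 from week 4 to week 12 (adjusted p = 4.39e-04), both past the p limit and under the fold limit. By that p limit alone, 23.97% and 28.6% of all genes tested were lower in these comparisons. From week 8 to week 12 it was -0.04 ± 0.12 (adjusted p = 0.892). On raw CPM the CDAA means were 437, 393 and 406, and none of their 3 pairs passed the exact permutation test (lowest adjusted p = 0.167).

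The diet effect itself was not shown to differ between weeks for either gene. For Fgf21 it differed by -0.79 ± 0.53 between weeks 8 and 4 (SE, edgeR adjusted p = 0.266, 95% interval -1.84 to 0.26), by 0.91 ± 0.55 between weeks 12 and 8 (adjusted p = 0.208, interval -0.16 to 1.98) and by 0.12 ± 0.54 between weeks 12 and 4 (adjusted p = 0.894, interval -0.95 to 1.18). Without animal 906 the difference between weeks 12 and 8 was 1.43 (edgeR adjusted p = 0.0260), and with limma-voom quality weights it was 1.57 (adjusted p = 0.0142), neither under 0.01. The intervals for Fgf21 are wide and include differences of more than 1 on the log2 scale. For Igf1 the differences were -0.03 ± 0.17 (adjusted p = 0.903), -0.32 ± 0.17 (adjusted p = 0.146) and -0.35 ± 0.17 (adjusted p = 0.102), with intervals of -0.36 to 0.29, -0.64 to 0.01 and -0.68 to -0.02. Between weeks 12 and 8 the difference for Igf1 was -0.34 with limma-voom quality weights (adjusted p = 0.0246) and -0.45 with the length trend removed (adjusted p = 0.0265). For reference, 4.25%, 4.01% and 5.04% of genes were called in these 3 interactions.

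In order of mean TMM-scaled CPM, Fgf21 was highest in CSAA at week 4 (41.9), followed by CSAA at week 8 (38.2), CSAA at week 12 (15.5), CDAA at week 4 (15.1), CDAA at week 8 (7.96) and CDAA at week 12 (6.08). Two-sided exact permutation tests were adjusted over 30 pairs, 15 for each gene. Neighbours differed at the steps from 38.2 to 15.5 (exact permutation adjusted p = 0.0180) and from 15.1 to 7.96 (exact permutation adjusted p = 0.0320). The other 3 steps did not pass (adjusted p from 0.426 to 0.943 in exact permutation tests). The order depended on the scaling. CDAA at week 4 lay above CSAA at week 12 with reads on genes alone (16.3 against 12.04 CPM) and as RPKM (25.9 against 19.2), and the means of these groups were not told apart on either scale or with TMM. The difference between CDAA at weeks 4 and 8 did not pass with reads on genes alone (exact permutation adjusted p = 0.167) or as RPKM (exact permutation adjusted p = 0.155).

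For Igf1 the order was CSAA at week 4 (1065), week 12 (966) and week 8 (799), then CDAA at week 4 (417), week 8 (306) and week 12 (297). Every CSAA mean lay above every CDAA mean. The steps from 799 to 417 (exact permutation adjusted p = 0.00143) and from 417 to 306 (exact permutation adjusted p = 0.00204) passed. The steps between neighbours among the CSAA groups (exact permutation adjusted p = 0.201 and 0.0606) and from week 8 to week 12 on CDAA (0.643) did not, whereas the first and last of the CSAA groups, weeks 4 and 8, differed as given above. With TMM, 11 of 15 pairs passed for Fgf21 and 12 of 15 for Igf1 at an adjusted p under 0.05, and 1 pair of Fgf21 and 8 pairs of Igf1 had no overlap. With reads on genes alone 9 of 15 pairs passed for Fgf21 and 10 of 15 for Igf1, and 0 pairs of Fgf21 and 8 pairs of Igf1 had no overlap.

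The spread between rats of a group set the genes apart. The SD of log2 CPM within groups was 0.803 for Fgf21, higher than in 96.7% of the genes tested and in 98.6% of the 1000 genes nearest to it in level. For Igf1 it was 0.234, higher than in 43.3% of genes tested and in 61.8% of the 1000 genes nearest to it in level. Diet and week together held 65.8% of the variance of Fgf21 and 92.5% of that of Igf1, where the median gene had 67.4%. The highest Fgf21 CPM of a group was between 4.005 and 8.39 times the lowest, whereas for Igf1 this ratio was between 1.32 and 2.16.

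**Figure D3:**
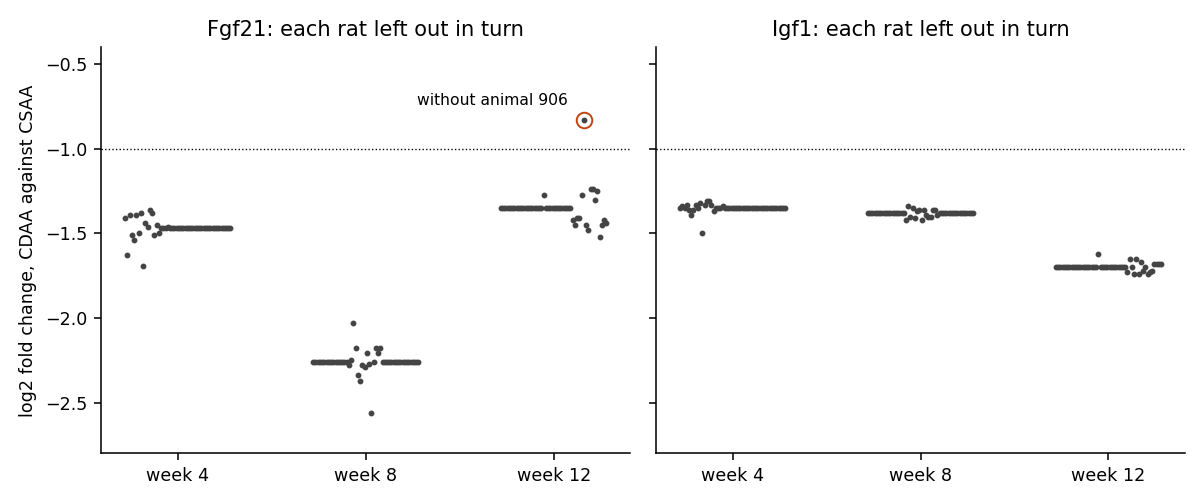
Log2 fold change of Fgf21 (left) and Igf1 (right), CDAA against CSAA, in 48 fits per week that each leave out 1 rat (points). The circle marks the fit that lost its call, at -0.83 without animal 906, and the dotted line marks the limit of -1.

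Animals 303, 504, 908 and 1102, and separately animals 1106, 1107 and 1108, were left out in further fits, a choice made from earlier results of these data. Without animals 303, 504, 908 and 1102 the diet effect on Igf1 was -1.48, -1.40 and -1.67 and that on Fgf21 was -1.45, -2.18 and -1.28 at weeks 4, 8 and 12, all called. Without animals 1106, 1107 and 1108 the week 12 effects were -1.62 for Igf1 and -1.75 for Fgf21. Animal 303 had the highest Igf1 of its CDAA group (705), animal 504 the lowest of its CSAA group (566), and animal 1102 the highest of its CDAA group (349). Animal 908 had the lowest Fgf21 of its CSAA group (5.76) and animal 1102 the lowest of its CDAA group (2.45).

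Across the 48 rats Fgf21 and Igf1 had a Pearson r of 0.615 (log2 CPM, which takes in the diet effect), and Igf1 held place 1976 among the genes most like Fgf21. After the mean of each group was subtracted, r was -0.120. Within single groups no relation passed. In 5 groups r ranged from -0.23 to 0.18 and Spearman's rho from -0.24 to 0.21 (n = 8 each, exact permutation test, adjusted p = 0.844 for r and 0.977 for rho, over 6 groups). When the 2 rats with the most extreme Fgf21 were left out, r in these groups ranged from -0.84 (CSAA, week 8, where it had been 0.082) to 0.23. In CDAA at week 12 the rats fell into 2 clusters of 4 by Fgf21, so no r is given. Their Igf1 did not overlap but showed no comparable gap. Over these rats the exact permutation test did not pass (adjusted p = 0.133 for Pearson's r and 0.0923 for Spearman's rho). The 4 rats with the lower Fgf21 were those with the higher Igf1. Animals 1101 to 1104 had Fgf21 from 2.45 to 4.45 and Igf1 from 297 to 349 CPM, and animals 1105 to 1108 had Fgf21 from 8.02 to 10.7 and Igf1 from 263 to 273 CPM.

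**Figure D4:**
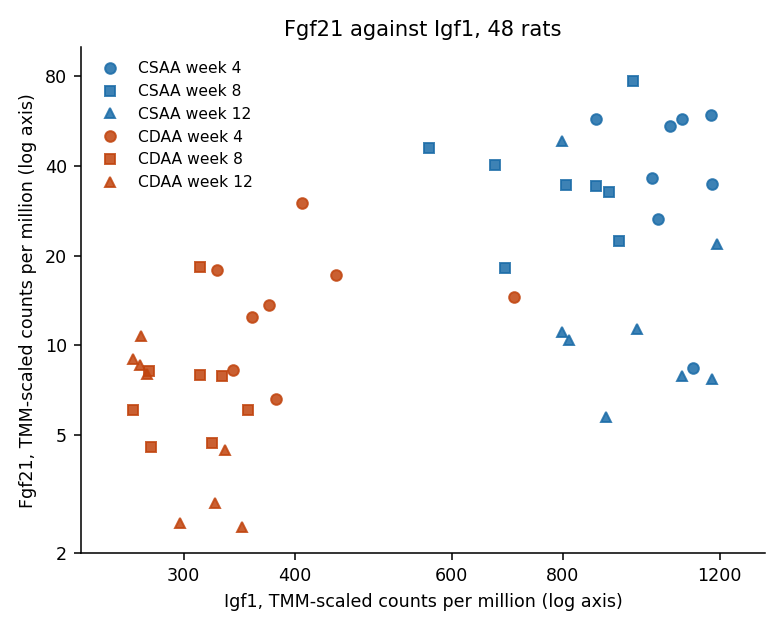
Fgf21 against Igf1 in TMM-scaled CPM (log axes), 1 point per rat, coloured by diet and shaped by week. Over all weeks Igf1 separates the diets apart from animal 303 (CDAA week 4, 705 CPM), which lies above 3 CSAA rats of week 8. By Fgf21, CDAA at week 12 forms 2 clusters of 4.

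The genes most like each member across the 48 rats are known here by identifier alone. For Fgf21 the nearest was ENSRNOG00000011490 (r = 0.880), which was also the nearest after group means were subtracted (r = 0.664). Its log2 fold changes between the diets were -1.98, -2.29 and -1.30 at weeks 4, 8 and 12. For Igf1 the nearest was ENSRNOG00000003746 (r = 0.972), with log2 fold changes of -1.42, -1.87 and -2.01. The fifth nearest gene had an r of 0.838 for Fgf21 and 0.967 for Igf1. These r describe 48 rats that share the diet effect, and carry no test.

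Dividing CPM by RPKM gives the length in kilobases that the deposited RPKM assumes for a gene. This was looked at after the data were seen. For Fgf21 it was nearly constant, from 621 to 631 bases. For Igf1, which is spliced into several transcripts, it ranged from 1172 to 1415 bases, and its SD on the log2 scale (0.063) was larger than in 95.8% of 8060 well covered genes. At week 8 it was 1369 ± 28.7 bases on CDAA and 1267 ± 31.4 on CSAA (SD, n = 8 each), with no overlap (two-sided exact permutation test, p = 1.55e-04, adjusted p = 0.00155 over 15 pairs). At week 4 the means were 1264 ± 41.7 on CDAA and 1271 ± 47.7 on CSAA (exact permutation adjusted p = 0.874), and at week 12 they were 1313 ± 34.9 and 1353 ± 45.2 (exact permutation adjusted p = 0.0971). The control groups differed as well, with 1353 at week 12 against 1267 at week 8 (exact permutation adjusted p = 0.00175). RPKM of Igf1 thus carries a length that differs between groups, by up to 0.112 on the log2 scale between the diets at week 8, and its source was not tested.

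**Figure D5:**
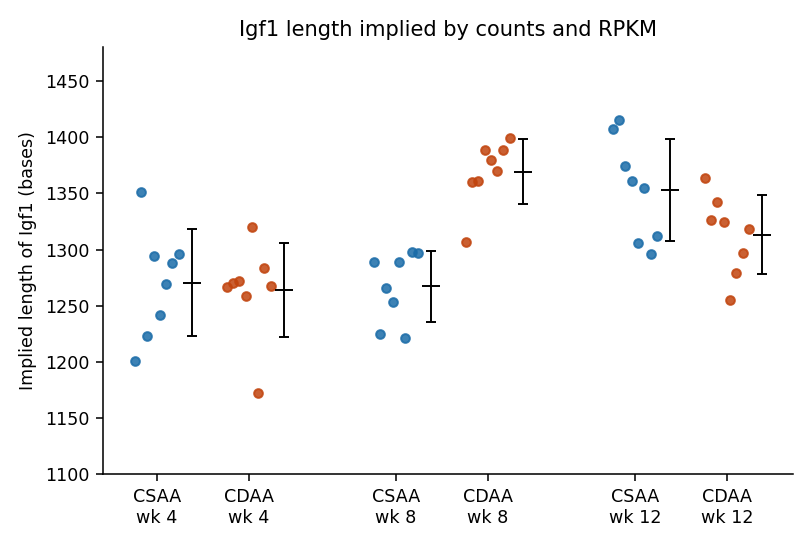
Length of Igf1 in bases implied by the deposited counts and RPKM in each rat (points), with the mean and SD of each group of 8. CDAA at week 8 (1369) lay above CSAA at week 8 (1267) with no overlap, whereas the diets overlapped at weeks 4 and 12.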

How the data were processed

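RNA of 48 livers was sequenced as single-end reads of poly(A) RNA. The authors aligned them with STAR to Rnor_6.0 (Ensembl release 84), and deposited counts per gene from featureCounts without normalization. RPKM values were also deposited by the authors, and how their gene lengths were set is not given in the sources used here. The submitters' processing notes also name FastQC 0.11.2 and Cufflinks.

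Here, counts were tested in edgeR 4.0.16 (R 4.3.3) with TMM factors and 1 coefficient per diet and week, in 1 fit of 48 animals over the 12756 genes that reached 1 CPM in 5 or more animals of any group, with Benjamini-Hochberg adjustment. limma 3.58.1 (voom, the method of the study, and RPKM) and DESeq2 1.42.0 were alternatives. Exact permutation tests used all splits of 8 against 8 animals. Log2 CPM used a prior count of 2. On simulated counts of the diet effect at week 12 (12756 genes, of which 200 carried a difference of 2 on the log2 scale), 194 were recovered by edgeR with 0 false calls. As many of these were raised as lowered and all other genes were left equal, so no shift in library make-up was simulated. The simulated difference was also larger than the week 12 effects on Fgf21 (-1.35) and Igf1 (-1.70). This recovery therefore does not bear on their calls. Labels name no batch, and none was modelled. P-values set a difference between groups against the spread between animals. Rats were treated as independent, although they were housed in pairs and cage mates are not known.

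Members, gene lists and tests were chosen with earlier results of these data known. Genes to be named were Fgf21, Igf1, fixed related genes and the 5 most like each member. The 15 lists of 134 related and cell marker genes were not analysed, because the identifiers come without names and 0 of them matched RefSeq, and for the same reason 1 identifier is printed for each member's likeness. Fgf21 and Igf1 were identified by the names given with their identifiers.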

Additional observations from a re-analysis of the deposited data

Results flagged for a closer look

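In 30 sets of 8 rats (Fgf21 and Igf1 as TMM-scaled CPM and as RPKM, and the implied length of Igf1, each in 6 groups), 7 single rats lay far from the others by Dixon's criterion. Chance flags about 1 in 20 such sets. Fgf21 of animal 906 (CSAA, week 12) was 48.3 CPM, with the next rat at 21.9, and 61.7 as RPKM, with the next at 25.1. Fgf21 of animal 703 (CDAA, week 8) was 18.3 CPM, with the next at 8.19, and 38.7 as RPKM, with the next at 17.4. Igf1 of animal 303 (CDAA, week 4) was 705 CPM, with the next at 445, and its TMM factor of 0.827 was the lowest of its group. The implied length of Igf1 was 1172 bases in animal 306 (CDAA, week 4), with the next rat at 1259, and 1307 bases in animal 701 (CDAA, week 8), with the next at 1360. CPM and RPKM of a gene come from the same reads, so the flags of animals 906 and 703 on both scales are not independent.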

How the results depend on the processing

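The log2 fold change between the diets was negative for both genes at each week under every alternative run and whichever rat was left out. For Fgf21 at week 12 this direction was not secure. Its adjusted p was 0.367 with limma on log2(RPKM + 1). Its median was not lower on CDAA than on CSAA with reads on genes alone (8.47 against 8.18 CPM) or as RPKM (13.5 against 13.1). Counting error reached 12.9% for Fgf21, with 60 reads in 1 rat, and no gene list was tested. No paired analysis was possible because no replicate number is shared between groups.

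Calls were lost with reads on genes alone and with RPKM, which also changes the test and the gene length. With reads on genes alone, log2(RPKM + 0.1) and log2(RPKM + 1), Igf1 had log2 fold changes of -0.97, -0.98 and -0.97 at week 4, -0.77, -0.87 and -0.87 at week 8 and -0.88, -0.83 and -0.83 at week 12, with adjusted p from 2.20e-12 to 2.94e-10, so that its calls were lost through size. Fgf21 had -1.06, -1.0 and -0.98 at week 4 (adjusted p = 0.0148, 0.0279 and 0.0249), -0.52, -0.41 and -0.37 at week 12 (0.219, 0.351 and 0.367) and, from week 4 to 12 on CDAA, -0.96, -1.03 and -0.96 (0.0365, 0.0272 and 0.0290), so that each of these missed the p limit of 0.01.

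Other lost calls were of Fgf21, and their cause was not tested. At week 12 these were limma-voom (-1.22), upper quartile factors (-1.10), the week alone (-1.25), quality weights (-0.67) and removal of a gene length trend (-1.04), with adjusted p from 0.0108 to 0.130. The test against a log2 fold change of 1 kept its call at week 8 and lost those at weeks 4 (-1.47) and 12 (-1.35) and over time (-1.30, -1.42 and -1.31). With the length trend removed the changes over time were -0.78 and -0.89 on CSAA (week 12 against 8 and 4) and -0.81 on CDAA (week 12 against 4). Without animals 303, 504, 908 and 1102 the change from week 8 to 12 on CSAA was -1.16 and that from week 4 to 12 on CDAA -1.14.

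Values that changed sign were all uncalled. The difference of the Igf1 diet effect between weeks 8 and 4 was 0.01 with limma-voom, 0.08 with upper quartile factors, 0.20 with reads on genes alone, 0.09 without animals 303, 504, 908 and 1102, 0.05 with quality weights, 0.10 and 0.10 with RPKM and 0.26 without the length trend. Between weeks 12 and 8 it was 0.05 and 0.04 with RPKM, and between weeks 12 and 4 it was 0.09 with reads on genes alone and 0.15 and 0.15 with RPKM. For Igf1 on CDAA from week 8 to 12 it was 0.05 with reads on genes alone, 0.04 without animals 1106, 1107 and 1108 and 0.10 and 0.10 with RPKM. For Igf1 on CSAA from week 4 to 12 it was 0.01 without the length trend. The difference of the Fgf21 diet effect between weeks 12 and 4 was -0.27 without animals 1106, 1107 and 1108, and Fgf21 on CSAA from week 4 to 8 was 0.02 and 0.01 with RPKM. Pearson's r of Fgf21 with Igf1 in CSAA at week 4 was 0.23 with RPKM.

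Leaving out 1 rat at a time, the diet effect on Fgf21 at week 12 ranged from -1.52 to -0.83, its change from week 8 to 12 on CSAA from -1.82 to -1.07, and on CDAA its changes from week 4 to 8 from -1.22 to -0.70 and from week 4 to 12 from -1.47 to -1.08. The difference of the Fgf21 diet effect between weeks 12 and 4 ranged from -0.05 to 0.64, that between weeks 12 and 8 from 0.68 to 1.43 (without animal 906) and that of Igf1 between weeks 8 and 4 from -0.08 to 0.12. The number of genes called was 1402 and 2510 at weeks 4 and 8 with log2(RPKM + 1), against 2543 and 3856, and 1031, 1930 and 2332 at weeks 4, 8 and 12 with the test against a log2 fold change of 1.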
